A study of Rattus norvegicus with 16 samples.

Results

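Messenger RNA of Hif1a, of the glucose transporters Slc2a1 and Slc2a3, of the iron uptake genes Tfrc and Tf and of the vasoconstrictor gene Edn1 was measured in 3 regions of the newborn rat cochlea. All probe sets annotated to these 6 genes on the Affymetrix Rat Neurobiology U34 array were taken, which gave 9 of the 1263 probe sets that are not controls. Hif1a, Slc2a1, Tfrc and Edn1 had 1 probe set each, Slc2a3 had 2 and Tf had 3. The series held 16 arrays, each hybridised with total RNA from a pool of 12 cochleae.

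The organ of Corti is the sensory epithelium with the hair cells. The modiolus is the bony core that houses the spiral ganglion, and the stria vascularis is the capillary-rich epithelium that secretes endolymph. Native tissue was dissected in cooled saline with glucose and lysed without culture. It was represented by 2 arrays for the organ of Corti and by 1 array each for the modiolus and the stria vascularis. Normoxic explants were cultured for 24 h in a medium that held 10% serum, 0.6% glucose, 25 µg/ml insulin and 100 µg/ml transferrin, with 2 arrays per region. Hypoxic explants were kept in the same medium for the same time and spent 5 h of it at an oxygen pressure of 10 to 20 mmHg, beginning 3 h after plating, with 16 h of recovery in normoxia before collection, again with 2 arrays per region. Hypoxic samples therefore show the state after recovery, not the state at low oxygen. The labels of the native modiolus and native stria vascularis arrays call them freshly prepared, while their treatment text also speaks of collection after cultivation. The labels do not say whether the repeats of a group came from separate litters or culture days, so p-values measure the spread between these pools, which may be in part technical.

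HIF-1 is the transcription factor that switches cells to low oxygen. Its alpha subunit, the product of Hif1a, is made continuously, marked by prolyl hydroxylases while oxygen is present and then degraded, so that its activity is set largely at the protein level and not by its mRNA. When stabilised it pairs with ARNT and binds short DNA elements with the core ACGTG or GCGTG near genes of glucose uptake, glycolysis, iron supply and vessel tone. Slc2a1 and Slc2a3 encode the facilitative glucose transporters GLUT1 and GLUT3, Tf encodes transferrin, the extracellular carrier of ferric iron, Tfrc encodes the receptor that takes up iron-loaded transferrin, and Edn1 encodes the precursor of endothelin-1. All 5 genes are known as HIF targets in one cell type or another, and Tfrc mRNA is also stabilised by the iron regulatory proteins when cellular iron is low.

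RefSeq promoter windows of rat build GRCr8, from 250 bases before to 50 bases after the annotated start, were found for 5 of the 6 genes, Slc2a3 being the exception. Windows of 4 genes are shown because Hif1a, Slc2a1 and Tfrc had higher signals in all cultures than in native tissue of the same region, while Tf did not in the modiolus. This choice used the signals of these data, and a link between cores and signals was not tested. The Hif1a window belongs to a start downstream of the outermost start annotated for the gene, while the other windows sit at the outermost start. Each is read on the strand of its gene. Capitals mark the cores ACGTG and GCGTG on either strand, so that the opposite strand appears as CACGT and CACGC. The windows lie at chr6:98359648-98359947 on the plus strand for Hif1a, chr5:138002272-138002571 on the plus strand for Slc2a1, chr11:81690269-81690568 on the minus strand for Tfrc and chr8:112695327-112695626 on the minus strand for Tf.
Hif1a: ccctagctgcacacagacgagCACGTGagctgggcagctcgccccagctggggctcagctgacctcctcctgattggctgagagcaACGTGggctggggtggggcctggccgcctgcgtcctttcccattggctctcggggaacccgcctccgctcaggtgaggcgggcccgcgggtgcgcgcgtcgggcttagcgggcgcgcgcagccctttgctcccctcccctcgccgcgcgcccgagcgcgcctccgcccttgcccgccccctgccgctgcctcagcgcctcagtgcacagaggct
Slc2a1: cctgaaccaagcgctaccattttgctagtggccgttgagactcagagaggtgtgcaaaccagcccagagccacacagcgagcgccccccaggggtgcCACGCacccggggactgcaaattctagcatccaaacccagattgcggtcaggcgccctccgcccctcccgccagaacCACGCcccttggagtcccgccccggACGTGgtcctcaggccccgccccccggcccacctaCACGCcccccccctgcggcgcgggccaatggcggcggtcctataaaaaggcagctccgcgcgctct
Tfrc: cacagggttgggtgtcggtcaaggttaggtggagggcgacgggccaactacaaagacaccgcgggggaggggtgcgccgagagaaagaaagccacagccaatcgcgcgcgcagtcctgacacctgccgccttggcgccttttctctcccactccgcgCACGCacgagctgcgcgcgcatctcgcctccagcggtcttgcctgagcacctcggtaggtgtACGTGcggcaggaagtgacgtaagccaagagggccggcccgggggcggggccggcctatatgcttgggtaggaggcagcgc
Tf: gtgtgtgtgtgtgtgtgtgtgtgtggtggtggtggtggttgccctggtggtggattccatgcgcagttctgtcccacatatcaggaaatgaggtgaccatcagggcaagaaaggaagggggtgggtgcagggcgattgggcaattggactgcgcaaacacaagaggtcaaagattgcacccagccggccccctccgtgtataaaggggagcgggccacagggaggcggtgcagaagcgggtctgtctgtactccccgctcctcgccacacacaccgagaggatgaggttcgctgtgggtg

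The Hif1a window held 3 matches to ACGTG, of which 2 overlap as a palindrome read on both strands from -229 to -224 and the other lies at -164 to -160. Slc2a1 held 1 ACGTG at -51 to -47 and 3 matches to GCGTG on the opposite strand. Tfrc held 1 ACGTG at -31 to -27 and 1 GCGTG at -93 to -89 on the opposite strand. Edn1, at chr17:22666638-22666937 on the minus strand, held 1 ACGTG on the opposite strand at -201 to -197. Tf held neither core in this window. A TATAAA lay at -52 to -47 in Tf, at 25 to 30 in Slc2a1 and at -110 to -105 in Edn1. Of all windows 14.2% held one. Of 33469 rat promoter windows of this length 19.3% held ACGTG, 29.7% held GCGTG and 41.6% held at least 1 of the cores on either strand, so that a match by itself is common and describes letters, not binding.

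Signals were deposited as intensities on a linear scale, with a 2% trimmed mean of 2500 on every array and array medians of 555.4 to 939.0. Background was taken as the 95th percentile of 23 controls for foreign, non-rat sequences and lay between 236.8 and 772.2 on the 16 arrays. The Gapdh controls, whose ratio of 3′ to 5′ signal reads RNA integrity, gave 3.39 to 4.76 for native and 1.07 to 1.39 for cultured arrays, while that of beta-actin overlapped (1.67 to 2.41 and 1.73 to 2.78). Scanning took place in 3 sessions, of which the first held the native arrays and the others held 1 repeat of the cultures each. Culture, RNA integrity and scan session therefore cannot be told apart. Region labels were checked by markers. The strial potassium channel subunit Kcne1 read 52128 in native stria vascularis and 697 to 1798 on the other native arrays, Mbp of myelin read 29677 in native modiolus and 370 in native stria vascularis, and the hair cell receptor Chrna9 was above background in native organ of Corti (858 and 860) and in no other native region. Among cultures Chrna9 was above background on all organ of Corti arrays (732 to 1049), on both hypoxic modiolus arrays (577 and 825) and on 1 normoxic stria vascularis array. Not every marker followed Mbp, as S100b of Schwann cells was higher in native stria vascularis than in native modiolus. Schwann cell and myelin markers without S100b summed to 70879.5 in native modiolus, 27429 to 30893 in organ of Corti and 16149.6 in stria vascularis. Summed neuronal markers did not separate native organ of Corti (103570 to 113149) from native modiolus (110247).

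In each region Tfrc was several-fold higher after 24 h in normoxic culture than in native tissue, and Hif1a and Slc2a1 were higher in the mean of the regions. Averaged over the 3 regions, 7 of the 9 probe sets passed a test of normoxic culture against native tissue at an adjusted p of 0.05, and all 7 were higher in culture. This stands against 32.0% of all 1263 probe sets called in either direction and 13.3% called higher. The median log2 difference was 1.36 over the 9 probe sets, 0.63 with those that rest on background at their bound or at 0, and -0.14 over all probe sets. For 6 of the 9 all normoxic arrays lay above the native arrays of their region, and 32.2% of all probe sets were likewise free of overlap in 1 direction in every region. In the modiolus this rests on signals not above background for Slc2a3 D13962_at and, but for 1 array, for Tf U31866_g_at. The 7 became 4 when any 1 of native organ of Corti replicate 1, normoxic organ of Corti replicate 2 or normoxic stria vascularis replicate 2 was left out, and Hif1a, Slc2a1, Tfrc and the Tf probe set U31866_g_at were the 4 that passed under every alternative tried. The Tf probe set D38380_at did not pass over the regions (difference 0.30, adjusted p = 0.30). In the modiolus U31866_g_at was above background on 1 array, and its difference there had the opposite sign to the other Tf probe sets. In bulk tissue more RNA per cell and more cells of a type cannot be told apart, here and in all later results.

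**Figure D1:**
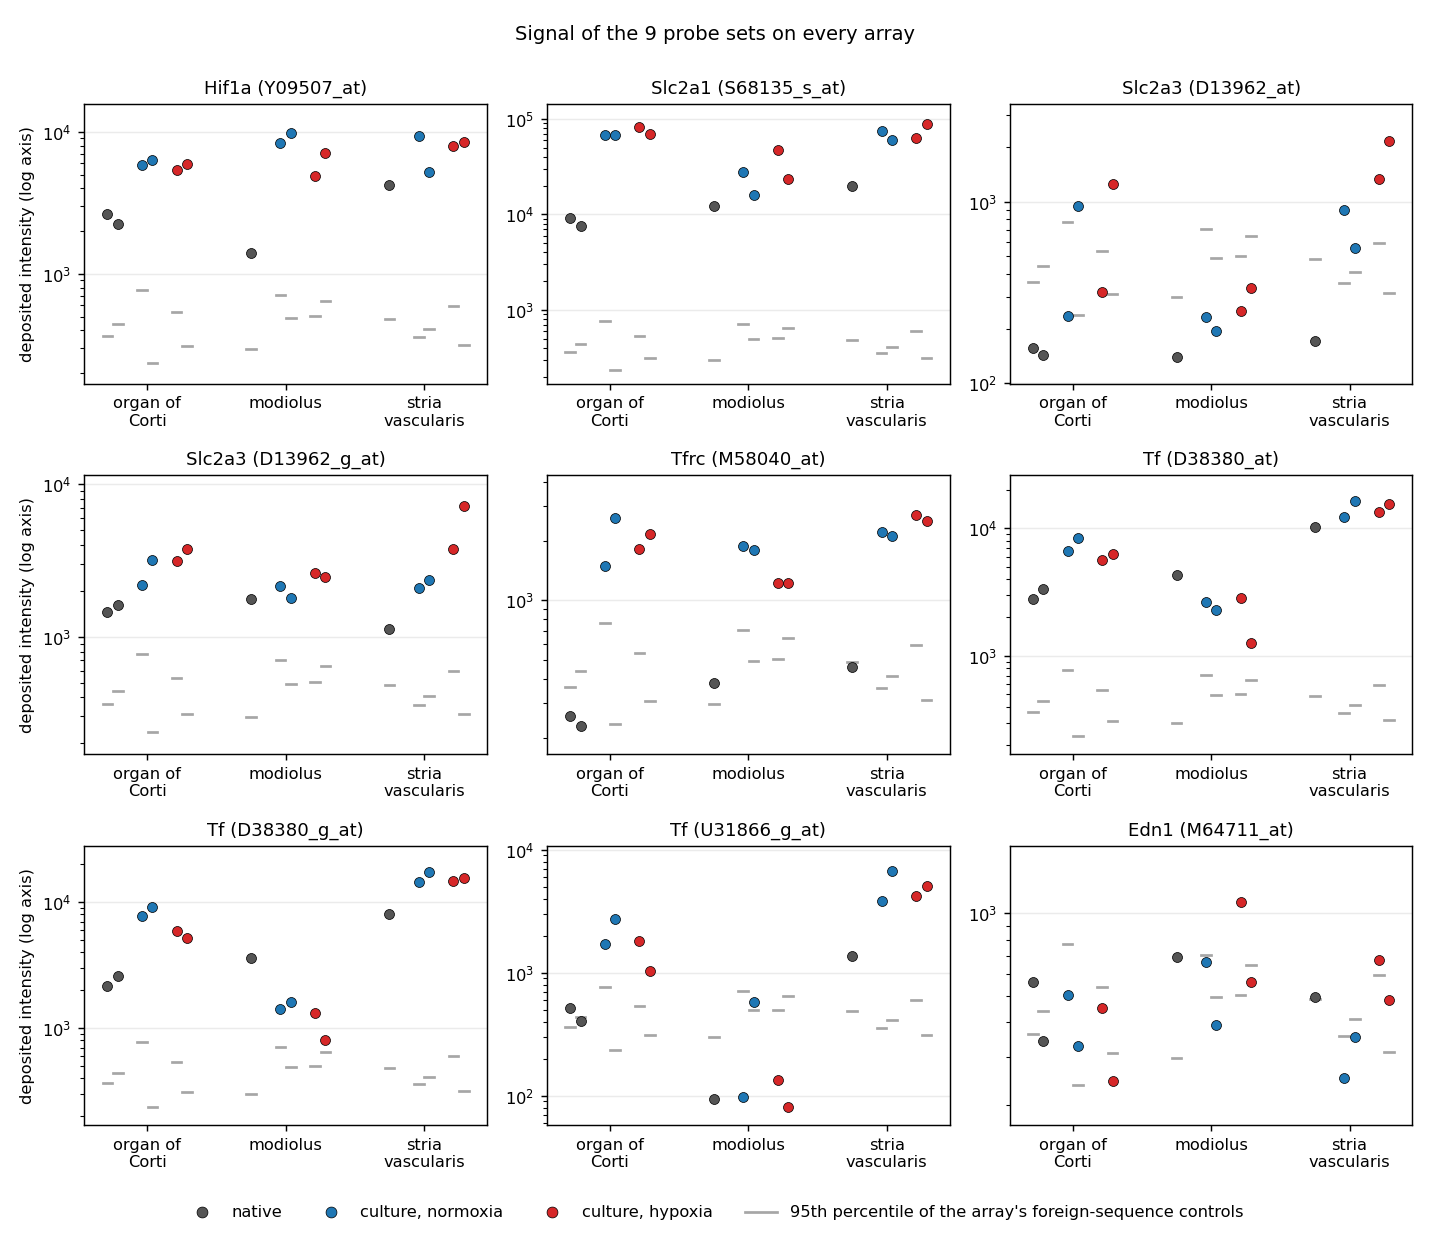
Deposited intensity (log axis) of each of the 9 probe sets on each of the 16 arrays, by region, with native tissue in grey, normoxic culture in blue and hypoxic culture in red. Each grey bar is the 95th percentile of the foreign-sequence controls of that array. The Tfrc signals of all 12 cultures, from 1228 to 2698, lie above those of the 4 native arrays, from 232 to 461.

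Hif1a, measured by Y09507_at, read 2654 and 2246 in native organ of Corti, 5870.5 and 6328 after normoxic culture and 5364 and 5976 after hypoxia. The modiolus gave 1399.6 in native tissue, 8372 and 9736 in normoxic and 4917 and 7140.0 in hypoxic cultures. The stria vascularis gave 4236 in native tissue, 9321 and 5173 in normoxic and 7895 and 8512 in hypoxic cultures. Every culture was brighter than every native array of any region. The native groups themselves were ordered from stria vascularis over organ of Corti to modiolus without overlap, whereas the 6 cultured groups formed a chain in which each overlapped the next.

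Averaged over the regions, Hif1a rose by 1.57 ± 0.18 (SE) on the log2 scale in normoxic culture, 2.96-fold, with an adjusted p of 2e-05. The rise was 2.68 ± 0.32 in the modiolus (6.39-fold, adjusted p = 9.8e-05) and 1.31 ± 0.26 in the organ of Corti (adjusted p = 0.0041). In the stria vascularis the difference was 0.71 ± 0.32 and did not pass (adjusted p = 0.20). There the normoxic arrays stood far apart, and the difference was 0.29 (adjusted p = 0.72) without replicate 1 and 1.14 (adjusted p = 0.030) without replicate 2. A direct test of whether the culture difference varied between the regions gave an F of 9.82 and an adjusted p of 0.067, against 3.33% of all probe sets called. It passed in 4 of the alternatives, with an adjusted p of 0.021 without normoxic stria vascularis replicate 1.

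Slc2a1, the transporter of basal glucose uptake that is abundant in barrier endothelium, was measured by S68135_s_at. It read 9056 and 7599.7 in native organ of Corti, 67756 and 67660.0 in normoxic and 83026 and 68691 in hypoxic cultures. For the modiolus the signals were 12109 in native tissue, 27980.0 and 15937 in normoxic and 47158 and 23219 in hypoxic cultures. For the stria vascularis the signals were 19903 in native tissue, 75197 and 60041 in normoxic and 63579 and 88367 in hypoxic cultures. Cultured organ of Corti and stria vascularis overlapped each other at a level above every cultured modiolus array, although native organ of Corti had the lowest signals of all groups.

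In normoxic culture Slc2a1 rose by 3.03 ± 0.33 on the log2 scale in the organ of Corti, 8.15-fold (adjusted p = 3.7e-05), and by 1.75 ± 0.40 in stria vascularis (3.37-fold, adjusted p = 0.011). The strial call was lost without normoxic stria vascularis replicate 1 (adjusted p = 0.066). In the modiolus the difference was 0.80 ± 0.40 with an adjusted p of 0.21, and both normoxic arrays were above the native array. It was 0.40 without normoxic modiolus replicate 1 and 1.21 without replicate 2. Over the 3 regions the rise was 1.86 ± 0.22 (adjusted p = 2.8e-05). The test of a difference between regions gave an F of 9.59 and an adjusted p of 0.071. It passed in 9 of the alternatives, among them the model with the replicate number as a block (adjusted p = 0.041). Of the 13 endothelial marker genes listed 4 were on the array, and Nos3 and Sele were above background in no group. The summed signal was 3094 to 3277 in native and 2190 to 2518 in normoxic organ of Corti, 3547 in native and 3899 to 4823 in normoxic modiolus, and 4624.5 in native and 5462 to 5711 in normoxic stria vascularis. Its other genes went opposite ways, as Selp was 310 in native and 1557 to 1625 in normoxic modiolus, where Vcam1 was 3137 and 2117 to 3084. In stria vascularis Selp was 1008 in native and 615 to 738 in normoxic tissue, where Vcam1 was 3401.5 and 4621.5 to 4889.6, and the part of endothelium in the Slc2a1 levels was not tested.

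Slc2a3, the high-affinity transporter known mainly from neurons, was measured by 2 probe sets. D13962_g_at was above background on all arrays and read 1459 and 1625 in native organ of Corti, 2188 and 3211 in normoxic and 3124 and 3753 in hypoxic cultures. Modiolus arrays showed 1764 in native tissue, 2141 and 1799.5 in normoxic and 2628 and 2472 in hypoxic cultures. Stria vascularis arrays showed 1131.5 in native tissue, 2103 and 2373 in normoxic and 3777 and 7178 in hypoxic cultures. Native stria vascularis thus had the lowest and hypoxic stria vascularis the highest signals of the 9 groups.

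The other probe set, D13962_at, was above background on no native array and on no modiolus array. Native organ of Corti read 143 and 157. Its normoxic cultures gave 236 and 951 and its hypoxic cultures 319 and 1254. Replicate 2 was the brighter in both and the only one above background. In the stria vascularis the probe set read 171 in native tissue, 907 and 556 in normoxic and 1339 and 2154 in hypoxic cultures. On the modiolus arrays it lay between 139.5 and 334. Over the 16 arrays the log2 values of the 2 probe sets correlated at r = 0.85, a description of arrays that share groups and not a test.

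The culture difference of Slc2a3 over the 3 regions was 0.63 ± 0.20 on the log2 scale for D13962_g_at (1.55-fold, adjusted p = 0.027). It was lost in 7 of 25 alternatives, among them those without native organ of Corti replicate 1, normoxic organ of Corti replicate 2, normoxic modiolus replicate 1 or normoxic stria vascularis replicate 2 (adjusted p = 0.057 to 0.070). D13962_at passed with an adjusted p of 0.048 and was lost in 19 of 25 alternatives. Its native signals give only bounds, of at least 1.45-fold for stria vascularis and none for modiolus. For organ of Corti, native signals raised to background gave 1.19-fold. Normoxic replicate 1 was itself not above background there, so this is no strict bound. Within single regions neither Slc2a3 probe set passed. The differences of D13962_g_at were 0.78 ± 0.30 for organ of Corti, 0.15 ± 0.37 for modiolus and 0.97 ± 0.37 for stria vascularis. The neuronal marker list, of which 8 of 12 genes were on the array, summed to 103570 to 113149 in native and 60921.5 to 66730 in normoxic organ of Corti. The same sum was 110247 in native and 45017 to 52614 in normoxic modiolus, and 15413 in native and 20923.5 to 21448 in normoxic stria vascularis. Eno2 carried the strial rise of the sum, which without it was 8337.5 in native and 5684 to 6334 in normoxic stria vascularis. The part of neurons in the Slc2a3 levels was not tested.

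Tfrc, the transferrin receptor, read 259 and 232 with M58040_at in native organ of Corti, 1487 and 2606.5 in normoxic and 1818 and 2184 in hypoxic cultures. In the modiolus it read 383 in native tissue, 1894 and 1793 in normoxic and 1231 and 1228 in hypoxic cultures. The stria vascularis gave 461 in native tissue, 2232 and 2115 in normoxic and 2698 and 2536 in hypoxic cultures. Of the 4 native arrays only that of the modiolus was above its background, whereas all 12 cultures were, and the lowest culture was well above the highest native array.

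In normoxic culture Tfrc rose in each region, by 2.93 ± 0.30 on the log2 scale in the organ of Corti (adjusted p = 2.4e-05), 2.22 ± 0.37 in the modiolus (adjusted p = 8.6e-04) and 2.20 ± 0.37 in the stria vascularis (adjusted p = 0.0014). With the native signals that were not above background raised to that level, the rise was at least 4.78-fold in the organ of Corti and 4.37-fold in the stria vascularis, and it was 4.66-fold in the modiolus. The fitted rise over the regions was 2.45 ± 0.20 (adjusted p = 1.3e-06), at least 4.60-fold. All these calls held under every alternative tried. The test of a difference between regions did not pass (F of 1.65, adjusted p = 0.70).

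Tf, the transferrin gene, was measured by 3 probe sets whose log2 values correlated at r = 0.89 to 0.98 over the 16 arrays. D38380_g_at read 2149 and 2584.5 in native organ of Corti, 7822 and 9157 in normoxic and 5879.8 and 5188 in hypoxic cultures. The modiolus gave 3624.5 in native tissue, 1413 and 1597 in normoxic and 1305 and 800.5 in hypoxic cultures. For the stria vascularis the signals were 8063 in native tissue, 14534 and 17401 in normoxic and 14741 and 15566 in hypoxic cultures. Organ of Corti and stria vascularis were thus brighter in all cultures than in native tissue, and the modiolus was dimmer in all cultures, with no overlap in any region.

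For this probe set the culture difference was 1.84 ± 0.23 on the log2 scale in the organ of Corti (3.57-fold higher, adjusted p = 1.2e-04), -1.26 ± 0.28 in the modiolus (2.40-fold lower, adjusted p = 0.0065) and 0.98 ± 0.28 in the stria vascularis (1.97-fold higher, adjusted p = 0.040). Its F for a difference between regions was 36.4 with an adjusted p of 0.0015, and it was the only one of the 9 probe sets to pass that test. The strial call was lost in 13 of 26 alternatives, with adjusted p up to 0.16, and the modiolar call, which rests on 1 native array, was lost in the model of only the arrays compared (adjusted p = 0.064). The mean of the 3 regional differences, 0.52 ± 0.15 (adjusted p = 0.021), combines opposite directions.

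D38380_at, another probe set to the same Tf sequence, read 2774 and 3355 in native organ of Corti, 6590.0 and 8395 in normoxic and 5657.5 and 6277 in hypoxic cultures. For the modiolus the signals were 4322 in native tissue, 2649 and 2268.5 in normoxic and 2859 and 1271 in hypoxic cultures. Stria vascularis arrays showed 10298 in native tissue, 12130.4 and 16243 in normoxic and 13480.5 and 15605.5 in hypoxic cultures. The order of native and cultured arrays was the same as for D38380_g_at in every region. Its culture difference passed in the organ of Corti (1.28 ± 0.31, adjusted p = 0.012), where the call was lost without native replicate 1 or without normoxic replicate 2 (adjusted p = 0.10 for each). It did not pass in the modiolus (-0.81 ± 0.38, adjusted p = 0.18) or the stria vascularis (0.45 ± 0.38, adjusted p = 0.56).

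U31866_g_at, the dimmest Tf probe set, read 516 and 403 in native organ of Corti, 1717 and 2730.3 in normoxic and 1801 and 1027 in hypoxic cultures. In the stria vascularis it read 1368 in native tissue, 3859 and 6700.1 in normoxic and 4231 and 5106 in hypoxic cultures. On the modiolus arrays it read 95 in native tissue, 98 and 583 in normoxic and 133 and 80.5 in hypoxic cultures, and normoxic replicate 2 was the only one of these above background. In the organ of Corti the culture difference was 2.21 ± 0.64 (at least 4.43-fold, adjusted p = 0.032), which was lost in 5 of 27 alternatives, among them those without any 1 of the 4 arrays compared. Over the regions the probe set was higher in culture by 1.78 ± 0.43 (adjusted p = 0.0065). With dim native signals raised to background the mean rise was 2.39-fold. It takes normoxic modiolus replicate 1 as read, at 98 and not above background, so it is no strict bound. The modiolar difference of the probe set, 1.24 ± 0.79 (adjusted p = 0.34), rests on normoxic replicate 2 alone and gives no bound of a rise. This difference has the opposite sign to those of the other Tf probe sets. Of the 11 Schwann cell and myelin markers 6 were on the array, and their summed signal was 101313 in native and 27742 to 30585 in normoxic modiolus, 78076 to 86184 in native and 20375 to 22382 in normoxic organ of Corti, and 85635 in native and 14427 to 18056 in normoxic stria vascularis. S100b carried the strial sum, at 69486 in native tissue, where Mbp and Mog were not above background. Without S100b the sum was 70879.5 in native and 19072 to 23257 in normoxic modiolus, 27429 to 30893 and 9980.0 to 11599 in organ of Corti, and 16149.6 and 7171 to 9949 in stria vascularis. The part of these cells in the Tf levels was not tested.

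Edn1, the gene of the vasoconstrictor peptide endothelin-1, was close to background in all groups. M64711_at read 564 and 343 in native organ of Corti, 502 and 329.7 in normoxic and 451 and 245 in hypoxic cultures. Modiolus arrays showed 691 in native tissue, 663 and 391 in normoxic and 1095 and 562 in hypoxic cultures. The stria vascularis gave 495 in native tissue, 251 and 355 in normoxic and 675 and 482 in hypoxic cultures. It was above background on 7 of the 16 arrays, and neighbouring groups in the order of levels overlapped except native modiolus over hypoxic stria vascularis. The culture difference over the regions was -0.41 ± 0.36 (adjusted p = 0.43), with a 95% interval of -1.19 to 0.37.

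By region, 6 of the 9 probe sets passed for culture in the organ of Corti, all higher, against 17.3% of all probe sets called and 8.47% called higher. In the modiolus 3 passed, Hif1a and Tfrc higher and Tf D38380_g_at lower, against 20.9%, of which 10.1% were higher and 10.8% lower. In the stria vascularis 3 passed, Slc2a1, Tfrc and Tf D38380_g_at, all higher, against 13.7% called and 7.36% called higher. Of these 1 passed when normoxic stria vascularis replicate 1 was left out. The modiolar and strial counts rest on 1 native array each, which was assumed to vary like the other groups.

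**Figure D2:**
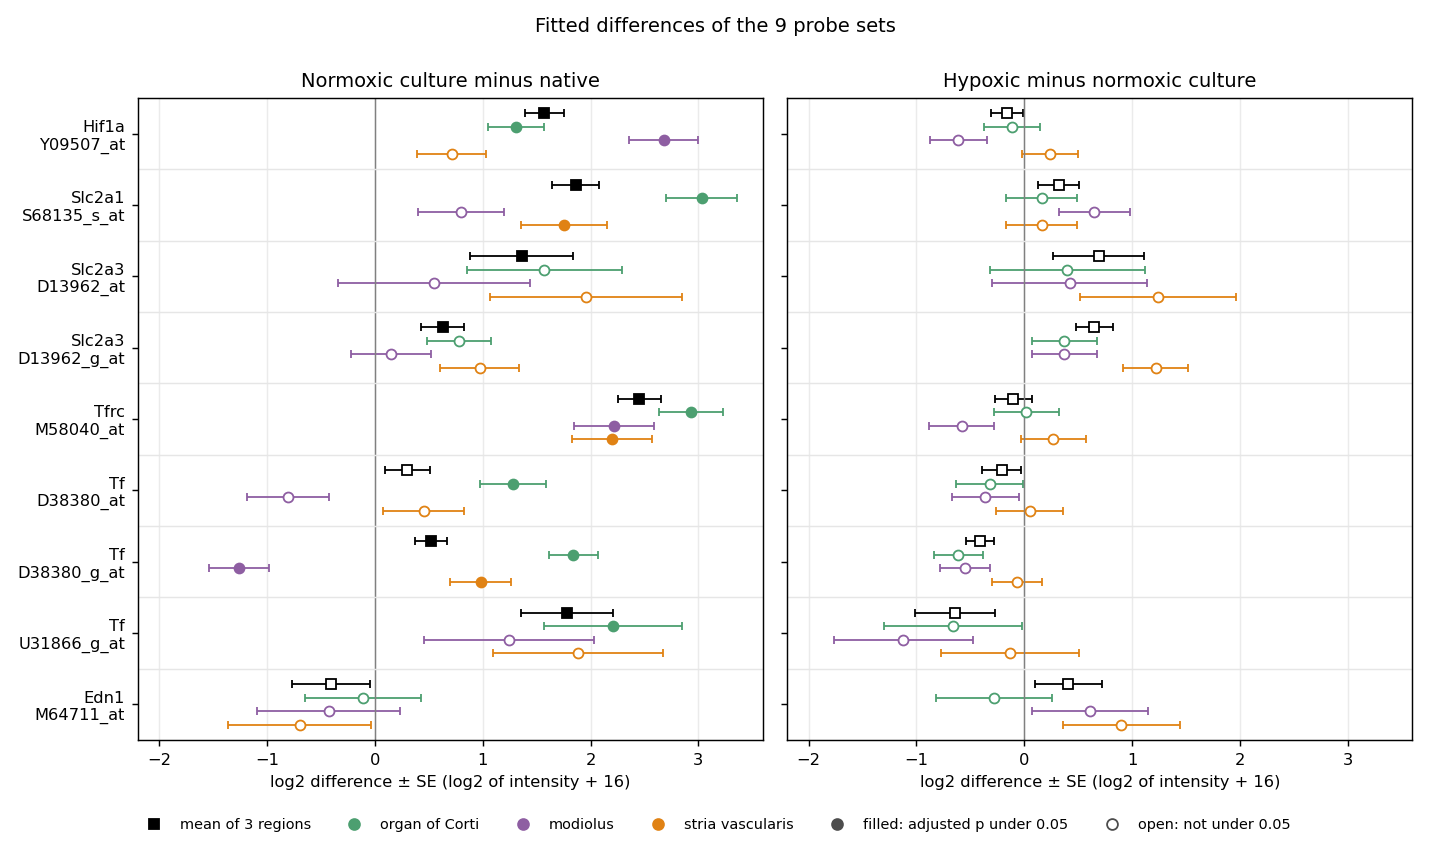
Fitted log2 differences of the 9 probe sets with standard errors for normoxic culture minus native tissue (left) and hypoxic minus normoxic culture (right), for the mean of the 3 regions (black squares) and each region (coloured circles). Filled symbols have an adjusted p under 0.05. In the left panel Tf D38380_g_at lies at 1.84 for organ of Corti and -1.26 for modiolus, and in the right panel no symbol is filled.

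The regions were then compared with each other among cultured explants, with the normoxic and hypoxic groups of a region averaged. Transferrin separated all 3 regions. It was highest in stria vascularis, intermediate in organ of Corti and lowest in modiolus with each of its probe sets, and the cultured arrays of the 3 regions did not overlap. For D38380_g_at the difference was -3.63 on the log2 scale between modiolus and stria vascularis (12.4-fold lower in the modiolus, adjusted p = 8.3e-09), 2.45 between organ of Corti and modiolus (5.46-fold, adjusted p = 3.1e-07) and -1.18 between organ of Corti and stria vascularis (2.27-fold lower in the organ of Corti, adjusted p = 3e-04). For U31866_g_at, which was above background on 1 of the 4 cultured modiolus arrays, the modiolus was at least 7.86-fold below the stria vascularis and at least 2.79-fold below the organ of Corti.

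Between cultured organ of Corti and modiolus 4 of the 9 probe sets passed, all higher in the organ of Corti, against 25.1% of all probe sets called and 11.9% called higher there. Beside the 3 of Tf this was Slc2a1, which was 1.44 higher on the log2 scale in the organ of Corti (2.70-fold, adjusted p = 5.8e-04). Between cultured organ of Corti and stria vascularis 3 passed, against 15.8% called and 5.23% called lower in the organ of Corti, and all 3 were Tf and lower there. U31866_g_at (-1.49, adjusted p = 0.043) was the least firm of them and was lost in 13 of 27 alternatives. The Slc2a1 means of these regions were 71783 and 71796, and the difference had a 95% interval of -0.49 to 0.51 on the log2 scale. Between cultured modiolus and stria vascularis 6 passed, all lower in the modiolus, against 25.2% called and 8.39% called lower. They were the 3 of Tf, Slc2a1 (-1.42, adjusted p = 6.3e-04), Slc2a3 D13962_at (at least 1.87-fold lower, adjusted p = 0.011) and Tfrc (-0.66, adjusted p = 0.039). The median of all probe sets was 0.41 higher in the modiolus in this comparison, and with each array centred on its median Slc2a3 D13962_g_at also passed (-1.03, adjusted p = 0.0084). As fitted it was -0.61 with an adjusted p of 0.054, and it passed too with the replicate number as a block (adjusted p = 0.029) and with scan session as a random block (adjusted p = 0.035). The Tfrc difference was -1.09 with median centring, and its call was lost whenever any 1 of the 8 cultured arrays compared was left out. The summed signal of the strial marker list, of which 4 of 9 genes were on the array, was 79849 in native and 19034 to 20851 in normoxic stria vascularis. It was 8783 to 9112.5 in native and 4354.5 to 4862 in normoxic organ of Corti, and 6695 in native and 3313 to 3534 in normoxic modiolus. Kcne1 alone was 9837 to 13685 in normoxic stria vascularis. The part of the lower strial markers in the Tf, Slc2a1 and Tfrc levels of cultured stria vascularis was not tested.

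Among native tissues, Tf was already highest in the stria vascularis. Organ of Corti and stria vascularis differed by -1.77 for D38380_g_at (3.41-fold lower in the organ of Corti, adjusted p = 0.0021) and by -1.75 for D38380_at (adjusted p = 0.013), the 2 of 9 probe sets that passed, against 7.13% of all probe sets called and 2.45% called lower. The call of D38380_at was lost without native organ of Corti replicate 1 (adjusted p = 0.079). None of the 9 passed between native organ of Corti and modiolus, where 5.46% of all probe sets were called and 3 of the 9 had an unadjusted p under 0.05, as had 15.6% of all probe sets. Between native modiolus and stria vascularis, 1 array each, 3 of 9 passed, all lower in the modiolus, against 9.18% called and 4.43% called lower. Hif1a was 3.00-fold lower in the modiolus (adjusted p = 0.017), Tf D38380_g_at was 2.22-fold lower (adjusted p = 0.047) and Tf U31866_g_at at least 4.42-fold lower (adjusted p = 0.023). The call of D38380_g_at was lost in 14 of 24 alternatives. For Tf D38380_g_at organ of Corti lay below modiolus in native tissue, 2367 against 3624.5, and above it in the mean of the cultures, 7012 against 1279. The native difference of -0.62 on the log2 scale did not pass and rests on 1 modiolus array. D38380_at had the same orders. U31866_g_at had organ of Corti above modiolus both before and after culture, near background in native tissue (403 and 516 against 95).

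Hypoxia was tested against normoxia among cultures of the same region. None of the 9 probe sets passed in any region or in their mean, by limma with adjustment over all probe sets. Few probe sets of the array did, 0.158% in the mean, 0% for organ of Corti, 0.0792% for modiolus and 0.238% for stria vascularis. At an unadjusted p under 0.05 there were 2 of the 9 in the mean, 1 for organ of Corti, 2 for modiolus and 1 for stria vascularis, against 7.44%, 4.51%, 8.0% and 4.99% of all probe sets in the same order. For none of the 9 were hypoxic and normoxic arrays free of overlap in the same direction in every region, which held for 1.66% of all probe sets. No alternative moved any of the 9 past the threshold in any of these contrasts.

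Slc2a3 came closest to the threshold. For D13962_g_at the difference was 0.65 ± 0.17 on the log2 scale over the regions, with a 95% interval of 0.28 to 1.03, an unadjusted p of 0.0025 and an adjusted p of 0.24, and the adjusted p ranged from 0.073 to 0.57 over the alternatives. The hypoxic array was brighter than the normoxic array of the same repeat in 6 of 6 pairs. These pairs are not independent, because the regions of a repeat share a scan session, and the labels do not tie equal numbers to a litter or day. The share of all probe sets with such a count was not determined. In the first repeat the differences were 0.51 for organ of Corti, 0.29 for modiolus and 0.84 for stria vascularis. In the second repeat they were 0.22, 0.45 and 1.59 in the same order. In the modiolus the fitted difference was 0.37 and ranged from 0.11 to 0.50 over the alternatives. The strial difference was 1.22 ± 0.30 (adjusted p = 0.19), 0.75 without hypoxic stria vascularis replicate 2 and 1.68 without replicate 1. For the other Slc2a3 probe set, D13962_at, both arrays were above background in 3 of the 6 pairs, which differed by 0.39 in the second repeat of the organ of Corti and by 0.55 and 1.92 in the stria vascularis. A test of a difference between regions did not pass (F of 2.67 for D13962_g_at, adjusted p = 0.93).

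**Figure D3:**
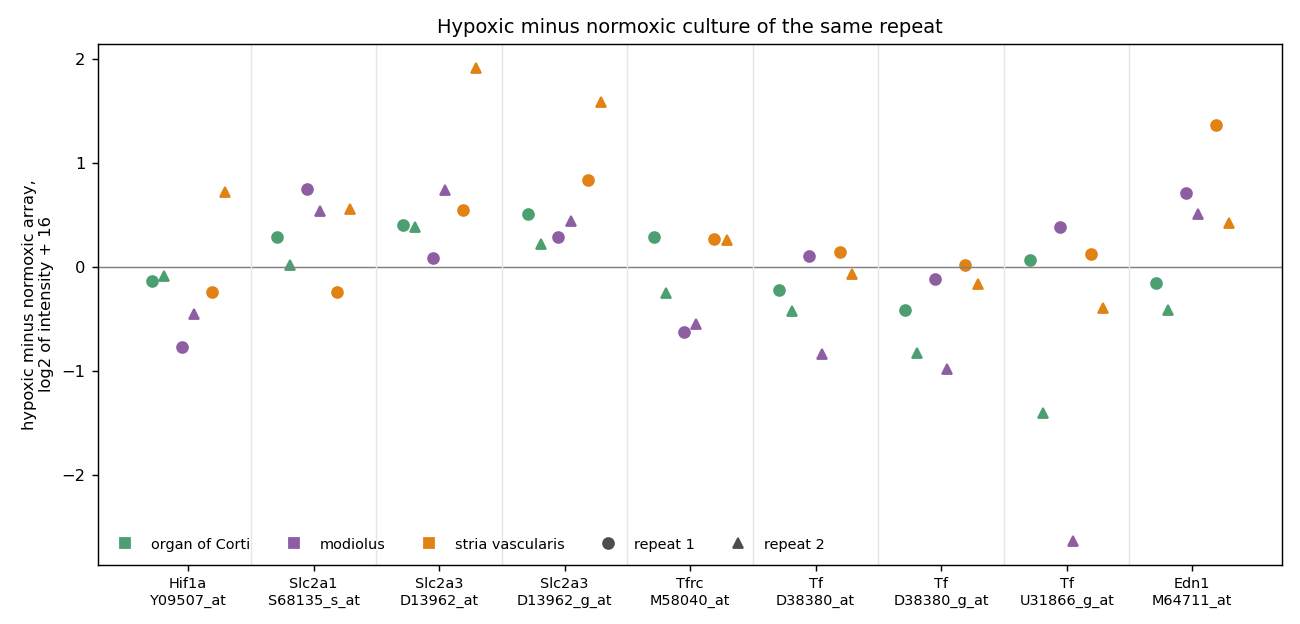
Log2 of intensity + 16 of the hypoxic array minus that of the normoxic array of the same repeat and region, for each of the 9 probe sets. Circles are the first repeat, triangles the second, and colours are regions. Slc2a3 D13962_g_at lies above 0 in 6 of 6 pairs, D13962_at is near background in the modiolus, and Tf U31866_g_at in the modiolus, near background, has the widest gap between the repeats, 0.39 and -2.63.

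For Hif1a itself the hypoxia difference over the regions was -0.16 ± 0.15, with a 95% interval of -0.49 to 0.17, and the hypoxic array was brighter in 1 of 6 pairs. It was -0.61 ± 0.26 in the modiolus (adjusted p = 0.59), where both hypoxic arrays lay below both normoxic arrays. For Slc2a1 the difference was 0.32 ± 0.19, with an interval of -0.09 to 0.73 and 5 of 6 pairs brighter. Tfrc differed by -0.10 ± 0.17 (interval -0.47 to 0.28) and, in the modiolus, by -0.58 ± 0.30 (adjusted p = 0.73). Tf D38380_g_at differed by -0.41 ± 0.13 (interval -0.70 to -0.12, adjusted p = 0.38), with 1 of 6 pairs brighter, and by -0.61 ± 0.23 for organ of Corti and -0.55 ± 0.23 for modiolus. Edn1 differed by 0.41 ± 0.31 (interval -0.27 to 1.09).

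Other genes of the same pathways were few on this neurobiology array. Of 15 genes of HIF regulation 1 was present beside Hif1a, the chaperone Hsp90ab1, and its culture difference was 0.35 ± 0.15 (adjusted p = 0.093). Of 28 reported HIF targets that are not members 11 were present, of which 5 were higher and 3 lower after culture over the regions, with a median difference of 0.30. Of all probe sets 32.0% were called in either direction and 13.3% called higher, and the median of all was -0.14. The heme-degrading enzyme Hmox1 rose by 3.49 ± 0.12 on the log2 scale, the metallothionein Mt1 by 2.65 ± 0.15, the growth factor carrier Igfbp3 by 2.28 ± 0.17 and the inducible nitric oxide synthase Nos2 by 2.16 ± 0.20. The chemokine receptor Cxcr4 rose by 0.64. Lower in the mean were the carrier Igfbp2 (-0.39), the growth factor Tgfb3 (-0.67) and the adrenergic receptor Adra1b (-1.08). These 4 were named after their values were seen. Igfbp2 was -1.4 in the modiolus, with 1 native array, but 0.22 in organ of Corti and 0.01 in stria vascularis. Tgfb3 was -0.52, -1.38 and -0.12 in organ of Corti, modiolus and stria vascularis. Adra1b was above background on 0 of 2 normoxic modiolus and 1 of 2 normoxic organ of Corti arrays. After hypoxia 0 of the 11 passed, and Hmox1 had the smallest adjusted p (-0.55 ± 0.10, adjusted p = 0.056).

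Of 23 genes of iron handling 3 were present. Aco1, the cytosolic aconitase that doubles as an iron regulatory protein, read 7087 to 10295 on the native arrays and 2258 to 4188 in normoxic cultures and fell by 1.63 (SE 0.16, adjusted p = 7.8e-06) on the log2 scale. B2m, a partner of the hemochromatosis protein and of class I molecules, rose by 1.37 ± 0.11, and Hmox1 also belongs to this list. None of 5 genes of glucose use passed over the regions, and the differences of the 4 with the smallest adjusted p were -0.46 ± 0.25 for the insulin receptor Insr, 0.18 ± 0.11 for the neuronal enolase Eno2, 0.26 ± 0.22 for the growth factor receptor Igf1r and -0.66 ± 0.58 for the insulin-responsive transporter Slc2a4. The Eno2 mean joins opposite calls, -0.66 in the modiolus (adjusted p = 0.035) and 1.10 in the stria vascularis (adjusted p = 0.0026). Of 6 other endothelin genes Edn3 was present, at 1637 on the native modiolus array and not above background in the other 8 groups. Its test passed in the modiolus (adjusted p = 0.013) and over the regions (adjusted p = 0.022), which rests on that 1 array. After hypoxia none of these genes passed. The 3 Gapdh control probe sets, left out of the tests, were higher in all cultures than in native tissue, with medians over normoxic and native arrays of 138560 and 89549 for the 3′ probe set and 111633 and 24178 for the 5′ probe set. The 5′ rise moves with the RNA integrity measure above, of which it is a part. Hexokinase control probe sets separated less cleanly. The 3′ one read 1012 to 1866 on native and 1713 to 2819 on normoxic arrays, and the middle one 321 to 634 and 357 to 3507. The 5′ one did not overlap, at 72 to 347.5 and 513 to 1484.

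**Figure D4:**
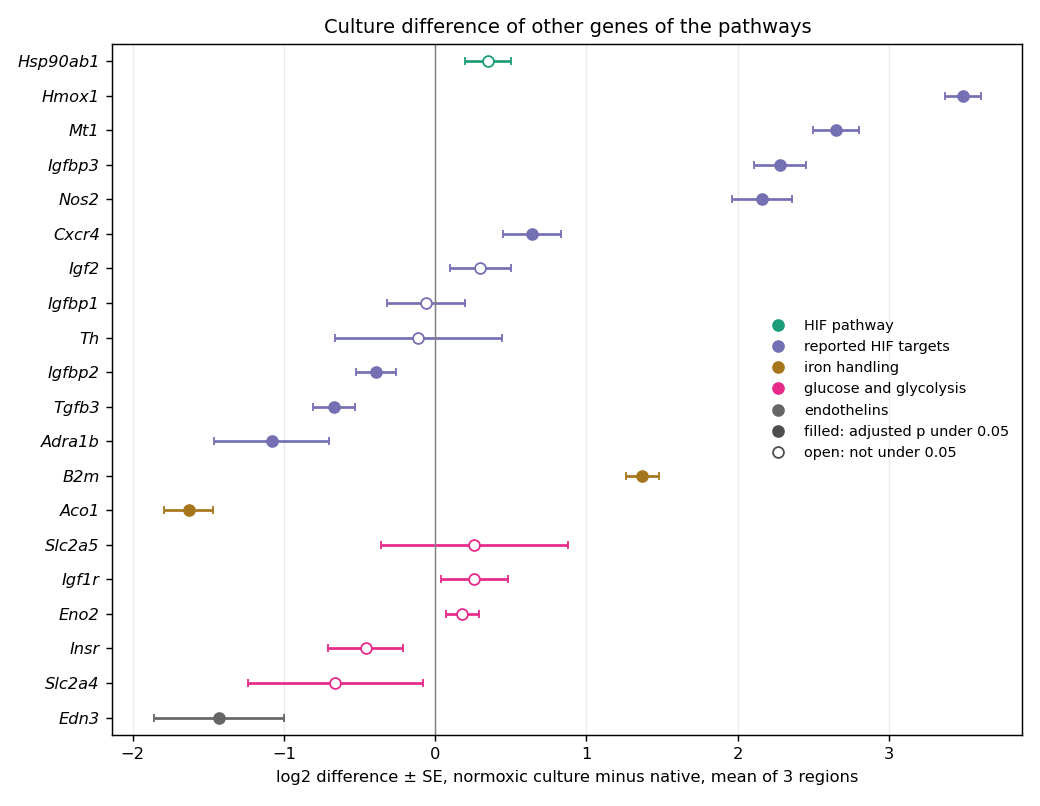
Log2 difference, normoxic culture minus native tissue as the mean of the 3 regions, with its standard error, for the genes of the HIF, iron, glucose and endothelin lists that are on the array. Filled symbols have an adjusted p under 0.05, and Hmox1, which is also a gene of iron handling, is drawn once. Hmox1 is highest at 3.49 and Aco1 lowest at -1.63, and Edn3 rests on 1 array above background.

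The genes with the most similar pattern over the 16 arrays were sought by Pearson correlation of log2 signals among up to 787 probe sets of other genes. For Tfrc they were Mt2A, a metallothionein (r = 0.973), and the 2 probe sets of complement C3 (0.960 and 0.948). For Hif1a they were the protease inhibitor Serpine2 (0.947), the membrane fusion protein Snap23 (0.917) and the transcription factor Cebpb (0.906). For Slc2a1 they were the cytokine Mif (0.895), Mt2A (0.888) and the neuropeptide Cck (0.876), and for Tf D38380_at the chemokine Cx3cl1 (0.913) and 2 probe sets of Enpp2 (0.858 and 0.840). Slc2a3 reached at most 0.761 with the glutamate transporter Slc1a1, and Edn1 at most 0.787 with the GABA transporter Slc6a11. Among the 6 genes themselves Tfrc correlated at 0.87 with Slc2a1 and at 0.85 with Hif1a, and at 0.40 with Tf, while Edn1 lay between -0.35 and -0.06 with the other 5. Arrays of a region share tissue, and the native arrays or the cultures of a repeat share a scan session. These values thus describe the grouping and carry no p.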

How the data were processed

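The authors deposited 1 table of intensity values on a linear scale for 1322 probe sets on 16 arrays, with the software that summarised and scaled them not given in the sources used here. The 2% trimmed mean of 2500 on every array was read from the values. The remaining deposited files were scanner and fluidics records, used for the scan session.

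Values were used as log2(intensity + 16). The 59 control probe sets were left out, which left 1263, and 9 carried the 6 gene symbols in the platform annotation. A model with 1 mean for each of the 9 groups was fitted in limma 3.58.1 (R 4.3.3) with a variance trend and 7 residual degrees of freedom, so that a single native array borrows its spread from the remaining groups. Two-sided p-values were adjusted by Benjamini and Hochberg's method over all 1263 probe sets, with a threshold of 0.05. The cultured mean of a region averages its normoxic and hypoxic groups. A group was called not above background where none of its arrays exceeded the 95th percentile of that array's 23 foreign-sequence controls. For "at least" folds each array of the dimmer side below that percentile was raised to it. Arrays of the brighter side were kept as read, also where they were not above background. All probe sets of the 6 genes are named, and of each other list up to 4 genes with the smallest adjusted p for culture. For each gene its brightest probe set was used in lists and in the search for similar patterns, which took probe sets of single-symbol genes whose highest group mean exceeded the median. The members, lists and rules were chosen with earlier results of these data known. The fit was tested on simulated data with independent noise and known changes planted in the hypoxic arrays only. That test planted no culture difference. Promoter windows are from RefSeq. Alternatives were other pseudocounts, normalizations, filters, variance models, array weights, replicate and scan blocks, a model of only the arrays compared, and omission of 1 array at a time. The number of arrays limits the precision.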

Additional observations from a re-analysis of the deposited data

Results flagged for a closer look

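The culture difference of Tf measured by D38380_g_at was not the same in the 3 regions. The moderated F test of limma gave an adjusted p of 0.0015 over 1263 probe sets, with log2 differences of 1.84 for organ of Corti, -1.26 for modiolus and 0.98 for stria vascularis, and this call held in all 25 alternatives with adjusted p of at most 0.027. The probe set D38380_at had the same signs (1.28, -0.81 and 0.45) and an adjusted p of 0.080. U31866_g_at did not share the modiolar sign, and it was above background there on 1 array.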

How the results depend on the processing

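Of 38 member calls over all contrasts, 24 held in every alternative and 14 were lost in at least 1, and of 3834 recomputed values 34 turned sign, none with a value past the threshold before or after. For culture over the regions the count of 7 became 4 without the variance trend and was 4 to 7 when single arrays were left out. By region it was 4 to 7 in the organ of Corti, 3 to 4 in the modiolus and 1 to 4 in the stria vascularis on leaving out single arrays. Without the variance trend the native count was 1 for organ of Corti against stria vascularis and 0 for modiolus against stria vascularis. Leaving out single arrays gave 0 to 1 for native organ of Corti against modiolus and 1 to 3 for native organ of Corti against stria vascularis. The count for a culture effect that varies between regions was 1 as reported, 2 with quantile normalization, array weights or scan day as a random block, 3 with the filter on dim probe sets, scan session as a random block or only the arrays compared, and 1 to 3 on leaving out single arrays. The hypoxia counts were 0 throughout. The cause of these shifts was not tested, except that fewer arrays enter where one is left out.

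The replicate number as a block gave 6 probe sets for culture over the regions, 2 for the variation of culture between regions, 7 for cultured modiolus against stria vascularis, where Slc2a3 D13962_g_at was gained, and 0 for hypoxia. The labels do not tie equal numbers to a litter or day. Residual correlations were over 0.1 in 12 of 21 pairs of groups (-0.006 to 0.284) and not in all, so the pairing was not adopted, although in cultures the number is also the scan session. Pairs with native organ of Corti cannot show a shared session, because its repeats were scanned in the same one. Between cultured groups the correlations were -0.006 to 0.066 with hypoxic modiolus and 0.127 to 0.284 among the rest. A shared session effect in the cultures is thus not excluded. Scan session as a term and the scan day as a random block were chosen after seeing the data. Native modiolus against native stria vascularis could not be fitted from those arrays alone. Signals near background limit Edn1, Slc2a3 D13962_at, Tf U31866_g_at in the modiolus and Tfrc in native tissue.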
